A study of Mus musculus with 4 samples.

Results

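Peaks of open chromatin were studied at the Zfp genes, a large family of mouse genes that encode zinc finger proteins. The peaks came from lists of cells enriched from fetal ovaries. A member was any peak inside, or within 1 kb of either end of, a protein-coding gene whose symbol was Zfp plus a number with optional letters. This gave 641 members among 49394 peaks of the Gata2WT list and 586 among 44139 peaks of the Gata2cKO list, or 1227 of 93533 peaks in all, at 393 Zfp genes of 21631 coding genes on the 19 autosomes and X. A Zfp gene with another Zfp gene within 100 kb was called clustered, and the others lone. By this rule 226 genes lay in 52 clusters and 167 were lone. Genes of the same family whose symbols begin otherwise were not counted, so a lone gene could still have had a relative beside it.

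ATAC-seq marks open chromatin by where the Tn5 transposase inserts adapters. Libraries came from about 10000 cells each, enriched with beads against the surface antigen SSEA1 from the ovaries of female C57BL/6J embryos at E14.5 (embryonic day), 2 samples labelled Gata2WT and 2 labelled Gata2cKO. Sires carrying 1 floxed Gata2 allele and Prdm1-Cre, a recombinase driven by a gene active in early germ cells, were mated with dams homozygous for the floxed allele. Every embryo of this cross thus carried at least 1 floxed allele. The sources used here do not give which of its genotypes served as Gata2WT or whether embryos were pooled. The authors deposited 1 combined peak list per genotype, so no value below has a replicate error and no difference between the genotypes could be tested. The deletion of Gata2 itself could not be checked from these lists.

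Most proteins of this family read DNA with arrays of C2H2 zinc fingers, and many carry a KRAB domain. KRAB recruits the corepressor TRIM28 and the histone methyltransferase SETDB1, which lay down trimethylated H3K9 and silence retrotransposons. The genes have multiplied by local duplication, so that many stand in clusters of close copies, and those clusters are known to carry heterochromatin themselves. Fetal germ cells erase most of their DNA methylation by this stage, when silencing of retrotransposons and the marking of imprinted genes matter. Other Zfp genes are unrelated transcription factors, RNA-binding proteins or signalling factors that share only the name.

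The promoter letters of 3 sets of genes are printed because the peak results below turn on them. They came from the RefSeq promoter windows of GRCm38.p6, which run from 250 bases before to 50 after the annotated start and held 328 of the 393 Zfp genes. The first set is the cluster of 5 genes on chromosome 8 that held 4 of the 5 strongest gene-end peaks of all Zfp genes in the Gata2WT list. Each window of 90 bases lies upstream of the start. Capitals mark CCAATCA or GTCACTCA, which were picked out after the letters had been seen and are counted further below.
Zfp868 (chr8:69625549-69625638, minus strand): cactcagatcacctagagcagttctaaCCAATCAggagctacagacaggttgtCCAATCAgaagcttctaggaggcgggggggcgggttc
Zfp964 (chr8:69654393-69654482, plus strand): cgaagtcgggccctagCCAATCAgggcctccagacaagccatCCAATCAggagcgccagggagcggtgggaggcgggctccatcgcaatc
Zfp869 (chr8:69716903-69716992, minus strand): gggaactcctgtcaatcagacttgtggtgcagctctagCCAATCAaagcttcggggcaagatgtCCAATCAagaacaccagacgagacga
Zfp963 (chr8:69749968-69750057, minus strand): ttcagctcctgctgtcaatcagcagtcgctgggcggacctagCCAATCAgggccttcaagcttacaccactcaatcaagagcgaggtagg
Zfp866 (chr8:69774926-69775015, minus strand): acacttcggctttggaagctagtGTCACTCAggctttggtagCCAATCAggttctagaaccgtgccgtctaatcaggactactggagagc

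The second set is 3 genes of chromosome 2 that had no peak in either list, with the same letters in capitals. Zfp966 and Zfp967 were identical over all 90 bases shown, and Zfp970 matched Zfp966 at 89 of 90.
Zfp966 (chr2:175931117-175931206, minus strand): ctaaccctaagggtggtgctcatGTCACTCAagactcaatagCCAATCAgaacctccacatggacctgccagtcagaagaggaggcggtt
Zfp967 (chr2:176520898-176520987, plus strand): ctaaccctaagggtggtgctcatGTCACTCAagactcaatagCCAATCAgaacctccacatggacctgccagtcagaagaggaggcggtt
Zfp970 (chr2:177464631-177464720, plus strand): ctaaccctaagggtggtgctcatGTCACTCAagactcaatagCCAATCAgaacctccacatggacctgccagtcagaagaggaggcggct

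The third set is the neighbours Zfp119a and Zfp959 on chromosome 17, the first with a peak in the Gata2WT list alone and the second with none. The same letters are in capitals.
Zfp119a (chr17:55878984-55879073, minus strand): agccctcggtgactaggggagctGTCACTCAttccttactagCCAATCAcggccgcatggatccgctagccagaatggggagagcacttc
Zfp959 (chr17:55891970-55892059, plus strand): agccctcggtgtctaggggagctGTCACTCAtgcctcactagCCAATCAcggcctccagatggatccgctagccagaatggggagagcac

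Most Zfp genes had an open end in both genotypes. A peak was called a gene-end peak when it lay within 1 kb of where the gene begins or stops, and a gene with one in both lists is called open in both lists. Of the 393 genes, 315 were open in both lists (80.2%, 95% Wilson interval 75.9 to 83.8), where 62.8% of all coding genes were. A further 7 had it in the Gata2WT list alone (1.78%, against 2.29% of all coding genes), 4 in the Gata2cKO list alone (1.02%, against 1.3%) and 67 in neither (17.0%, against 33.6%). Of clustered genes 180 of 226 (79.6%, 73.9 to 84.4) and of lone genes 135 of 167 (80.8%, 74.2 to 86.1) were open in both lists, so the intervals overlapped almost wholly. The 68 genes of the related Zbtb, Zscan and Zkscan series stood close by, with 56 (82.4%, 71.6 to 89.6). These intervals, like all others here, cover counting error only, and genes of a cluster are not independent of one another.

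**Figure D1:**
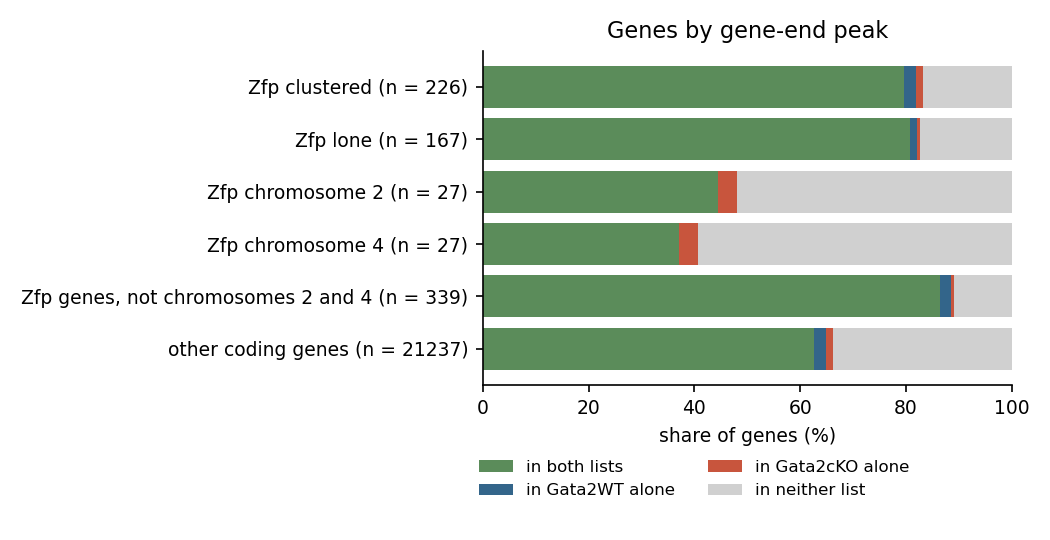
Share of genes (x axis, percent) with a peak within 1 kb of a gene end in both lists, in the Gata2WT list alone, in the Gata2cKO list alone or in neither, for 6 groups of genes with their numbers. Clustered and lone Zfp genes have bars of nearly the same make-up, and chromosomes 2 and 4 have the widest part in neither list.

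The gene-end peaks lay mostly at start sites. Of the 328 genes in the promoter table, 279 had a peak within 1 kb of a listed start in both lists (85.1%), 166 of 195 clustered genes and 113 of 133 lone genes. A peak at the 3′ end that was not also at a start site was found at 33 of these genes with Gata2WT peaks (10.1%) and at 28 with Gata2cKO peaks (8.54%), against 10.4% and 9.54% of other coding genes. Of the member peaks at genes in the table, the summit of 156 of 248 at clustered genes fell within 250 bp of a start in the Gata2WT list (62.9%), and of 92 of 238 at lone genes (38.7%). For Gata2cKO members these were 154 of 232 (66.4%) and 95 of 215 (44.2%). Summits within 1 kb of a start lay mostly downstream of it, 195 of 289 Gata2WT summits, with the median 77 bp downstream, and 190 of 287 Gata2cKO summits, with the median 73 bp downstream. Lone genes had more distant peaks: 88 of 238 Gata2WT summits lay over 10 kb from a start (37.0%), against 45 of 248 at clustered genes (18.1%).

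Gene-end peaks of clustered genes were narrower and of higher fold than those of lone genes. Fold is the authors' ratio of signal at the summit to local background. In the Gata2WT list the median fold was 10.8 at clustered genes, 8.75 at lone genes and 8.08 at other coding genes, and the Gata2cKO list gave 10.2, 8.46 and 7.95. The median width in the Gata2WT list was 815 bp at clustered genes, 937 bp at lone genes and 926 bp at other coding genes. Several summits were called within 14.2% of these peaks at clustered genes and 32.5% at lone genes. The median −log10 q, the authors' measure of how far a peak stands out from background, was nearly the same in clustered and lone genes, at 46.3 and 44.6 for Gata2WT peaks and 34.9 and 34.9 for Gata2cKO peaks. Gene-end peaks of other coding genes had 34.8 and 29.0.

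The strongest gene-end peaks of the family stood in 1 cluster of 5 genes at chr8:69610654-69774911, whose promoters are printed above. Zfp868 had the highest −log10 q of all Zfp genes in both lists, 203 in Gata2WT and 202 in Gata2cKO. Zfp963 had 196 and 142, Zfp866 171 and 122, and Zfp869 161 and 143. The last gene of the cluster, Zfp964, was lower, with 77.0 and 72.7, and ranked 69 and 44 among the Zfp genes. So 4 of the 5 genes ranked in the first 5 in each list. Outside this cluster, Zfp619 on chromosome 7 had 175 and 122. The 5 lone genes strongest in the Gata2WT list were Zfp511 (148 and 99.6), Zfp142 (137 and 118), Zfp219 (133 and 120), Zfp638 (127 and 113) and Zfp317 (120 and 95.2). All 10 of these strongest peaks were shared between the lists. The promoter of Zfp511 differs from those of the chromosome 8 cluster in its many CpG dinucleotides, 33 in its window against 6 to 24 there, as the 90 bases before its start show with each CG in capitals.
Zfp511 (chr7:140036301-140036390, plus strand): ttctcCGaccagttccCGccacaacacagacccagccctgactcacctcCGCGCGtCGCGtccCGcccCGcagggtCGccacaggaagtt

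**Figure D2:**
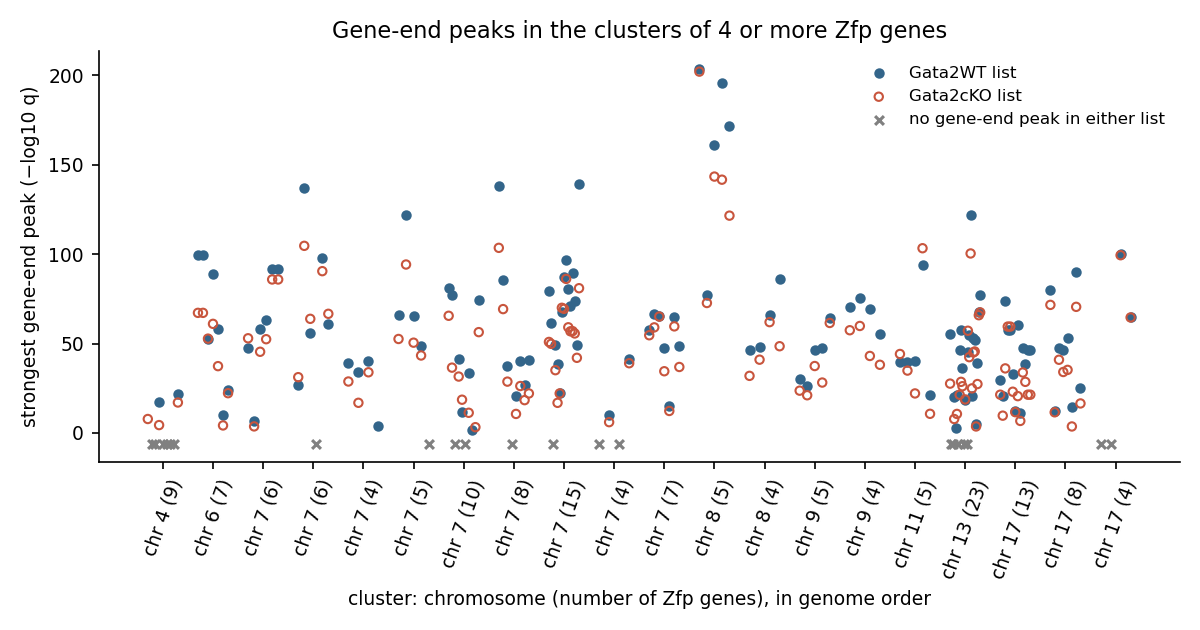
Authors' −log10 q of the strongest gene-end peak (y axis) of each Zfp gene in the 20 clusters of 4 or more genes, in genome order with chromosome and number of genes on the x axis. Filled points are the Gata2WT list, open points the Gata2cKO list and crosses genes with no gene-end peak in either; the chromosome 8 cluster of 5 genes holds the highest points and the chromosome 4 cluster of 9 genes the most crosses.

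The 20 clusters of 4 or more genes held 152 genes, and in 10 of them every gene was open in both lists. These included the 13 genes at chr17:21383707-21994366, the 8 genes at chr17:32765496-33110707 and the 7 genes at chr6:47815536-48086986. The largest cluster, 23 genes at chr13:67038594-67827000, had 17 genes open in both lists, Zfp458 in the Gata2WT list alone and 5 in neither, though all 23 had some peak. The 15 genes at chr7:29768552-30169775, Zfp568 among them, had 14 open in both lists. The 4 genes at chr17:33239507-33394637 were split: Zfp81 had gene-end peaks of 100 in Gata2WT and 99.4 in Gata2cKO and Zfp101 of 65.1 and 64.6, while Zfp955a and Zfp955b had no peak in either list.

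Genes with no peak at all were few, and most lay on chromosomes 2 and 4. No peak of either list lay inside or within 1 kb of 36 of the 393 Zfp genes (9.16%), where 25.2% of all coding genes had none. Of these 36, 10 were among the 27 Zfp genes of chromosome 2 and 12 among the 27 of chromosome 4, and the other 14 on chromosomes 7, 10, 11, 13, 17 and 18. By setting, 22 were clustered (9.73% of clustered genes) and 14 lone (8.38%). On chromosome 4, the 9 genes at chr4:147124882-147849126 had 2 genes open in both lists, Zfp978 in the Gata2cKO list alone and 6 in neither (Zfp991, Zfp988, Zfp985, Zfp979, Zfp534 and Zfp984). That stretch of 724 kb held 8 Gata2WT peaks and 9 Gata2cKO peaks, or 1.1 Gata2WT peaks per 100 kb, where the median of the 52 clusters was 4.80. In 4 small clusters, 2 on chromosome 2 and 2 on chromosome 4, no gene had a gene-end peak. Without the genes of chromosomes 2 and 4, a choice made after seeing the data, 293 of 339 genes were open in both lists (86.4%, 82.4 to 89.7).

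Many of these empty genes had promoters that recur elsewhere in the genome. A promoter window was called repeated where any of its 50-base stretches occurred in another window of the table, a measure added after the empty genes had been seen. Of the 32 empty Zfp genes in the table, 27 had repeated letters (84.4%), against 17 of 296 Zfp genes with a peak (5.7%), and 44 of 328 Zfp windows were repeated in all (13.4%, against 8.8% of other coding genes). In Zfp966, Zfp967 and Zfp970 above, 100% of the stretches of the window were repeated. Of the 284 genes with no repeated letters, 250 were open in both lists (88.0%, 83.7 to 91.3) and 5 had no peak (Zfp352, Zfp616, Zfp141, Zfp735 and Zfp972). Other coding genes were open in both lists in 68.0% with no repeated letters, 9.38% with under 50% of stretches repeated and 1.93% with more. They had no peak in 19.7%, 86.2% and 96.9%. Of the Zfp genes with under 50% of stretches repeated, 8 of 25 were open in both lists, and with more, 4 of 19. Those 4 were Zfp758, Zfp944, Zfp942 and Zfp943 on chromosome 17, with 20 to 22 CpG dinucleotides each. The windows of Zfp758 and Zfp944 overlap each other, as do those of Zfp942 and Zfp943, so the 4 genes are not independent. Bases shared at the same genome position were not counted as repeated. The sources used here do not give how reads that match several places were treated, so closed chromatin and reads that could not be placed cannot be told apart at the repeated promoters.

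**Figure D3:**
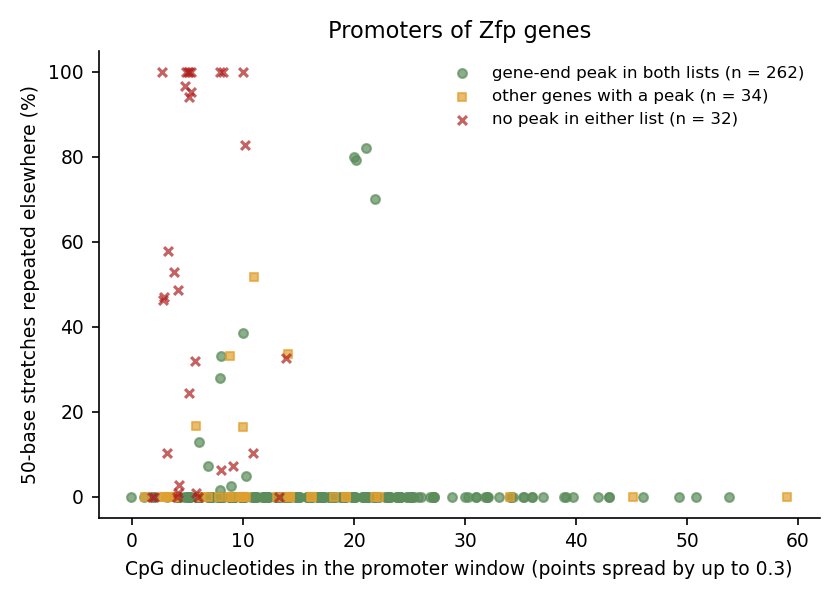
Each point is 1 of the 328 Zfp genes in the RefSeq promoter table: number of CpG dinucleotides in its window (x axis, points spread sideways) against the percent of its 50-base stretches found in another window (y axis). Genes with no peak in either list (crosses) lie mostly above 0 on the y axis and at few CpG dinucleotides, and genes open in both lists mostly lie at 0.

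The other letters of the promoters differed between clustered and lone genes. The median number of CpG dinucleotides per window was 11 at clustered genes, 17 at lone genes and 14 at other coding genes, and the median GC content was 53.3%, 58.7% and 56.7%. Zfp genes with few CpG in the window were more often open in both lists than other coding genes with as few. Open here counts a peak near either gene end, which need not lie at the promoter. Among windows with no repeated letters and 5 to 14 CpG dinucleotides, 101 of 116 Zfp genes were open in both lists (87.1%, 79.8 to 92.0), against 64.8% of other coding genes (63.2 to 66.3). With under 5 CpG the shares were 10 of 19 (52.6%, 31.7 to 72.7) and 15.5% (14.4 to 16.7), and with 15 or more they were 139 of 149 (93.3%) and 94.0%. Of the 10 open genes with under 5 CpG, Zfp27 with 1 CpG and Zfp418 with 2 had a start-site peak in both lists, while Zfp541, Zfp626 and Zfp957 had none at a listed start in either list and Zfp119b none in the Gata2WT list. These shares were not tested, since neighbouring genes are copies of one another.

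Short motifs were counted on both strands of the windows, as letters only. CCAAT was found in 49.4% of Zfp windows and 39.6% of all 17274 coding windows, and CCGGAA, a core bound by ETS factors, in 35.7% and 19.3%. GGGCGG, the GC box, was in 44.5% and 46.9%, with 37.9% at clustered and 54.1% at lone genes. AGATAA, a sequence read by GATA factors, was in 8.84% of Zfp windows and 9.99% of all. The longer CCAATCA, which contains CCAAT, was in 71 Zfp windows (21.6%) and 9.69% of all, and GTCACTCA in 31 (9.45%) and 1.57%. Both were chosen after the letters of the strongest peaks had been seen. They were more frequent in the 32 empty Zfp genes, at 62.5% and 37.5%, than in the 296 with a peak, at 17.2% and 6.42%. Most of the empty genes are repeated copies like the chromosome 2 genes above, and their letters are not independent. Among Zfp windows with no repeated letters and under 15 CpG dinucleotides, the order was the other way. There 28 of 29 genes with CCAATCA were open in both lists (96.6%), against 83 of 106 without it (78.3%). For GTCACTCA these were 14 of 14 and 97 of 121 (80.2%). Zfp868, Zfp963, Zfp866 and Zfp869, whose letters led to the choice, are among the 28. All of them but Zfp963 are among the 14, so these shares are not independent of that choice. Among other coding genes with such windows, 52.5% with CCAATCA and 38.9% without it were open in both lists. For GTCACTCA these were 37.8% and 39.9%. Whether either motif goes with open promoters was not tested.

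The core letters of the site bound by ZFP143, itself a member of the family that activates many promoters, were in 9 Zfp windows (2.74%) and 0.45% of all. These belonged to Zfp1, Zfp58, Zfp93, Zfp108, Zfp128, Zfp180, Zfp454, Zfp692 and Zfp933. All but Zfp93 were open in both lists, where 262 of the 328 Zfp genes in the promoter table were. Of other coding genes with these letters, 67 of 68 were open in both lists. Zfp93 had a shared peak at its start site (22.5 and 23.5), which lies inside the gene. The sites of 3 of the 9 Zfp genes are shown with the letters searched in capitals. Both strands were searched.
Zfp180 (chr7:24081837-24081896, plus strand): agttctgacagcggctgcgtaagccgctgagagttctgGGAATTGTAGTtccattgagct
Zfp454 (chr11:50887642-50887701, minus strand): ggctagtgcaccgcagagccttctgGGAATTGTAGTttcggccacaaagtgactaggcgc
Zfp108 (chr7:24254702-24254761, plus strand): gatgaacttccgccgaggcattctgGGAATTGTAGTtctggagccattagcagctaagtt

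Peaks present in 1 list alone were less frequent at Zfp genes than over all peaks. A peak with no overlap of even 1 bp in the other list was counted as such. In the Gata2WT list 101 of 641 members were absent from the Gata2cKO list (15.8%, 13.1 to 18.8), against 28.5% of all Gata2WT peaks. Of the Gata2cKO members 50 of 586 were absent from the Gata2WT list (8.53%, 6.53 to 11.1), against 19.7% of all. Over peaks at other coding genes the shares were 24.9% and 17.3%. Clustered genes had the lower share: 23 of 284 Gata2WT members (8.10%, 5.46 to 11.9) against 78 of 357 at lone genes (21.8%, 17.9 to 26.4). Among Gata2cKO members it was 18 of 276 (6.52%, 4.16 to 10.1) against 32 of 310 (10.3%, 7.41 to 14.2).

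The place and strength of the peaks moved with this difference. Clustered genes had 30.6% of their Gata2WT members inside the gene and lone genes 56.0%, and 12.7% of clustered against 33.9% of lone members were weak, with a −log10 q under 5. At gene ends the single-list share in the Gata2WT list was 4.06% for clustered and 5.73% for lone genes, against 7.22% for other coding genes. Inside genes it was 17.2% (10.7 to 26.5), 34.5% (28.3 to 41.3) and 38.2%. Among Gata2cKO members at gene ends it was 6 of 196 for clustered genes (3.06%, 1.41 to 6.52) and 3 of 151 for lone genes (1.99%, 0.678 to 5.68). Other coding genes had 4.55%. The order was the other way there, but on few peaks and with intervals that overlapped widely. Among weak Gata2WT members the shares were 55.6% for clustered and 58.7% for lone genes, near the 58.5% of all weak Gata2WT peaks. Among weak Gata2cKO members they were 35.7% and 34.1%, against 43.9% of all weak Gata2cKO peaks. Among members that were not weak, 10 of 484 were found for Gata2WT alone (2.07%, against 7.61% of all such peaks) and 7 of 462 for Gata2cKO alone (1.52%, against 4.74%). None of the 284 Gata2WT and 226 Gata2cKO members whose −log10 q reached 30 was in 1 list alone. The share over all peaks of that strength was not counted, so this is not read as particular to Zfp genes.

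**Figure D4:**
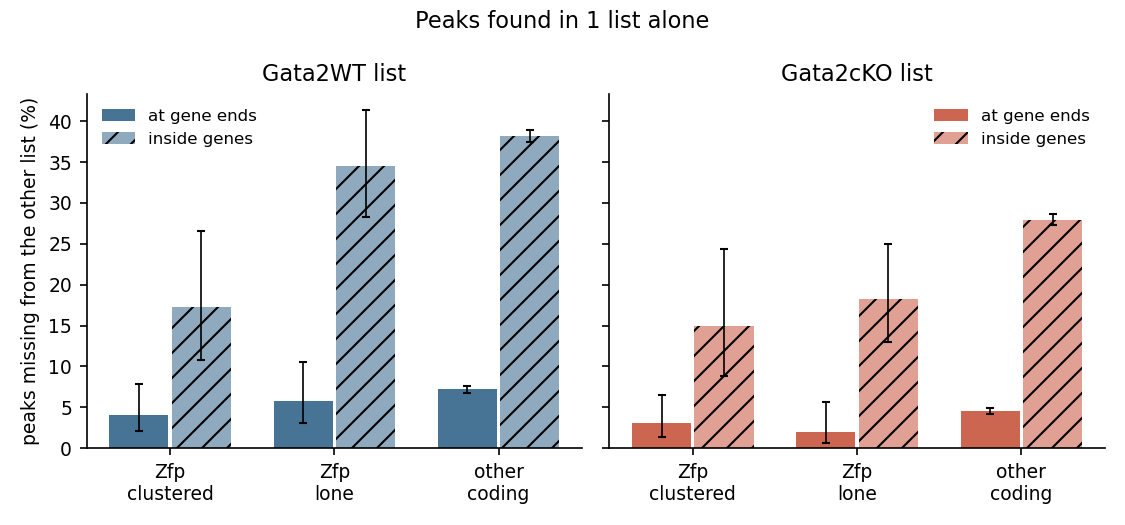
Percent of peaks with no overlapping peak in the other list (y axis), at gene ends and inside genes, for clustered Zfp, lone Zfp and other coding genes, with the Gata2WT list on the left and the Gata2cKO list on the right. Error bars are 95% Wilson intervals for counting error only; bars inside genes stand above bars at gene ends in every group, and the lone Gata2WT bar inside genes reaches 34.5%.

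Long lone genes held many of the single-list peaks, counting a peak once for each gene it touches. The 21 lone genes over 100 kb had 123 Gata2WT peaks, 43 of them in that list alone (35%), and 99 Gata2cKO peaks, 19 alone (19.2%). Over all peaks the shares were 28.5% and 19.7%, and over peaks inside other coding genes 38.2% and 28.0%. So these shares are not read as particular to long Zfp genes. The 146 shorter lone genes had 35 of 234 (15%) and 13 of 211 (6.16%), nearer to the clustered genes of the same length, with 22 of 290 (7.59%) and 16 of 280 (5.71%). Zfp704 had the most Gata2WT peaks, 13 with 7 in that list alone, and 9 Gata2cKO peaks with 3 alone. Zfp423 and Zfp521, large cofactors of EBF factors in nerve and fat cell development, had 12 and 12 peaks and 10 and 11 peaks. Zfp462, a regulator of early development, had 10 and 8.

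The 11 genes whose gene-end status differed between the lists had mostly weak peaks. The clearest in the Gata2WT list alone was Zfp119a, with a peak at chr17:55878971-55879257, just upstream of its listed start, 287 bp wide, and its summit 135 bp before that start. The peak had a fold of 8.16 and a −log10 q of 16.1. No Gata2cKO peak lay at this gene. Of its neighbours, Zfp119b had a shared gene-end peak of 30.9 in Gata2WT and 12.2 in Gata2cKO, and Zfp959 had none. Zfp772 had 4.05, and no Gata2cKO peak lay at this gene either. Both promoters had repeated letters, in 33.5% of the stretches of Zfp119a and 51.8% of those of Zfp772, so the limit on reading an absent peak at repeated promoters holds for these genes too. The other 5 with a gene-end peak in the Gata2WT list alone all had a Gata2cKO peak elsewhere at the gene. Zfp574 had a strong peak of 76.5 that both lists share, whose Gata2cKO interval ended short of the 1 kb window. Zfp57 had 2.62 at its 3′ end, Zfp458 and Zfp92 had 2.62, and Zfp93 had 1.44.

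In the Gata2cKO list alone, Zfp978 in the sparse chromosome 4 cluster had the strongest such peak, 7.78 at chr4:147124878-147125241. Zfp61 had 3.21 at its 3′ end with a shared start-site peak of 29.5 and 22.0, Zfp608 had 2.88 and Zfp663 had 1.20. With weak peaks left out of both lists, 2 of the 7 and 1 of the 4 kept their status. Start sites in place of gene ends could be used only for genes in the promoter table, which left out Zfp574, Zfp978 and Zfp608. Of the others, 3 of 6 (Zfp772, Zfp119a and Zfp92) and 1 of 2 (Zfp663) kept their status.

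The strongest single-list members elsewhere were also modest. In the Gata2WT list they were at the start of Zfp358 (10.5, chr8:3493162-3493724, summit 272 bp downstream of the start) and inside Zfp993 (7.31), Zfp704 (7.29, chr3:9477559-9477905) and Zfp687 (6.88). In the Gata2cKO list they were inside Zfp704 (7.74, chr3:9552428-9552689), at an end of Zfp532 (6.95), inside Zfp827 (6.65) and at an end of Zfp646 (6.06). Zfp358 counted as open in both lists through a shared peak at its 3′ end, of 17.2 in Gata2WT and 8.35 in Gata2cKO. Zfp704 held a single-list peak in each list, at different places.

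Members that guard imprints and silence retrotransposons had shared peaks in both lists. Zfp57, which keeps methylation at imprinted genes and had a gene-end peak in the Gata2WT list alone, had a shared start-site peak at chr17:37002446-37003179, of 37.0 in Gata2WT and 17.9 in Gata2cKO. Zfp445, which acts beside it at imprints, had a gene-end peak of 21.6 and 14.8 and a start-site peak inside the gene of 36.9 and 26.5. Zfp809, a repressor of proviruses, had 75.6 and 59.8, and Zfp932, which represses endogenous retroviruses, 40.0 and 26.1. Zfp568, a repressor of a placental Igf2 transcript, had 96.7 and 86.1, and Zfp961 had 85.9 and 48.5. The −log10 q of the lists was not scaled between genotypes, and over the 315 genes open in both lists the median was 49.2 in Gata2WT and 38.1 in Gata2cKO, so no change is read from a lower second value.

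**Figure D5:**
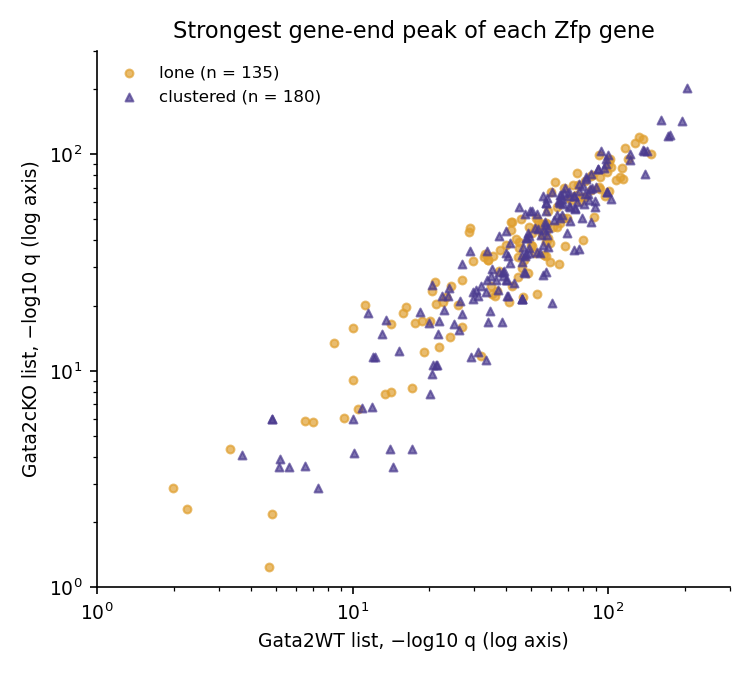
Authors' −log10 q of the strongest gene-end peak of each of the 315 Zfp genes open in both lists, Gata2WT on the x axis and Gata2cKO on the y axis, both log axes, with clustered genes as triangles and lone genes as circles. Clustered and lone genes are spread over the same range, and the values of the lists were not scaled to one another.

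Members with other roles were likewise open. Among transcription factors, Zfp143 had 76.0 in Gata2WT and 71.8 in Gata2cKO, Zfp281, which governs exit from naive pluripotency, 48.9 and 46.0, and Zfp148 53.1 and 45.6. Zfp217 had no gene-end peak, but 3 peaks of each list lay inside the gene. Of these, 3 Gata2WT and 2 Gata2cKO peaks lay within 1 kb of a listed start. Zfp541, a chromatin regulator of meiotic prophase in the male germ line, had 21.1 and 25.7 at a gene end away from its listed start. Zfp628, needed for spermatid development, had 47.3 and 52.9. Zfp36, which encodes the RNA-binding protein tristetraprolin, had 14.2 and 8.0. Zfp207, a spindle assembly factor, had 42.3 and 24.7, Zfp106, an RNA-binding protein, 50.2 and 43.5, and the ubiquitin ligase gene Zfp91 81.7 and 63.2. Zfp318 had 115 and 77.0, Zfp131 86.0 and 78.8, Zfp335 41.9 and 48.8, Zfp706 71.5 and 61.1, the X-linked Zfp711 44.4 and 27.1, and Zfp800 10.0 and 9.04.

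The corepressor genes through which KRAB proteins act were open as well. Of those reported here, 19 were open in both lists, where 62.8% of all coding genes were. Tasor had no gene-end peak but 1 shared peak inside the gene. The list was not compared with other genes of like promoters. Trim28 had 84.6 in Gata2WT and 56.0 in Gata2cKO and Setdb1 36.5 and 29.7. Mphosph8, a reader of trimethylated H3K9 in the HUSH complex, had 103 and 101, and Morc2a, which works with that complex, 93.5 and 54.9. The heterochromatin protein gene Cbx5 had 102 and 75.1, and the histone chaperone pair Atrx and Daxx had 41.3 and 29.0, and 94.2 and 103.

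The identity of the cells bears on all of these. The labels give the cell type as ovarian cells. All 8 germ cell marker genes were open in both lists, and so were 4 of 6 markers of ovarian supporting cells, 1 of 3 of stroma, 3 of 4 of endothelium, 2 of 3 of erythroid cells and 0 of 3 of macrophages, where 62.8% of all coding genes were. The share of other cells in each library, and their part in the peaks at Zfp genes, was not tested. At the edge of the 1 kb window, the last Gata2WT peak inside lay 901 bp from Zfp740 and the first outside 1023 bp from Zfp36. For Gata2cKO peaks these distances were 917 bp from Zfp36 and 1080 bp from Zfp503.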

How the data were processed

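ATAC-seq of 4 samples (2 Gata2WT, 2 Gata2cKO) was used as 1 combined MACS2 peak list per genotype, grouped by the labelled genotype. Per the submitters' processing notes, the tools named for GRCm38 (mm10) were MACS2 2.2.6, bedtools 2.29.2, Bowtie2 2.3.5.1, Trimmomatic 0.39, Picard 2.23.0 and SAMtools. The sources used here do not give parameters, the Tn5 read shift, the treatment of reads with several matches or how replicates were combined. The deposited fold is the authors' ratio of summit signal to local background, the deposited −log10 q comes from the same peak caller, and another deposited column gives the summit position. None was scaled between genotypes. Read numbers of the samples were not analysed here.

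Rows of 1 interval were merged (58367 to 49394 and 52241 to 44139 peaks, chromosome Y left out) with Python 3.11.15 and pandas 2.3.3. Peaks overlapping by 1 bp counted as shared. In a check of the code, 2000 simulated peaks were all called correctly as shared or not shared under each overlap rule. Intervals are Wilson's (statsmodels 0.14.6). Genes and promoters are RefSeq's. Named genes were those whose status differed, the 5 strongest clustered and lone genes, those with most peaks, up to 8 empty genes in the largest clusters, the strongest single-list peaks, every cluster of 4 or more genes, and genes of known role; others named (empty genes without repeats, open genes with most repeats or fewest CpG, motif holders, the printed neighbours) were chosen after their values were seen. Members and lists were chosen with earlier results of these data known. Alternatives were other windows, cluster distances, overlap rules, −log10 q minimums of 2 and 5, equal list lengths, start sites, and 2 added later. Protein features were planned, but no protein table was used here. 1 further gene with such a symbol and 1 corepressor gene are not reported here.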

Additional observations from a re-analysis of the deposited data

Results flagged for a closer look

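Outside the comparisons, the lists of these female samples held peaks on chromosome Y, above the cut-off of 3 entries set for flagging. The Gata2WT list had 10 such entries among 58367 before merging, and the Gata2cKO list 5 among 52241. No Zfp gene was counted there.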

How the results depend on the processing

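Of 98 recomputed values under 14 settings, 64 stayed close to the reported ones and 34 moved. With a reciprocal overlap of 50%, the single-list shares rose to 21.4% of all and 29.1% of lone Gata2WT members and to 14% and 18.1% in the Gata2cKO list. With summits within 250 bp they were 22.2% of all, 12.0% of clustered and 30.3% of lone Gata2WT members, and 14.8% of all and 19.4% of lone Gata2cKO members. With both lists limited to a −log10 q of at least 5 they were 8.47% of all and 10.2% of lone Gata2WT members and 4.98% of all and 2.14% of clustered Gata2cKO members, and 11 genes had a gene-end peak in Gata2WT alone. With lists of equal length they were 12.0%, 5.15% and 17.7% of all, clustered and lone Gata2WT members. At gene ends only they were 4.80%, 4.06% and 5.73% of Gata2WT and 2.59%, 3.06% and 1.99% of Gata2cKO members. With start sites, known for 328 genes, 85.1% of clustered genes had a peak in both lists and 2 genes in Gata2cKO alone. Without chromosomes 2 and 4, chosen after seeing the data, 86.6% of clustered and 86.2% of lone genes were open in both lists, and 2 genes in Gata2cKO alone. With genes of no repeated promoter letters, also chosen after seeing the data, these were 88.3% and 87.6%, with 4 genes in Gata2WT alone and 2 in Gata2cKO alone, and 13.0% of all and 17.4% of lone Gata2WT members were in that list alone. The cause was not tested. The clustered share lay below the lone one in 12 of 12 settings for Gata2WT and in 11 of 12 for Gata2cKO, the exception being gene ends only. No paired analysis was possible because the deposited lists combine the replicates, and for the same reason no replicate could be left out in turn. Depth behind a peak is not known for each sample, so an absent peak may be one that these lists could not detect.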
